A study of Arabidopsis thaliana with 18 samples.

Results

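AT3G16670 and AT1G23130 are nuclear genes of Arabidopsis thaliana whose transcripts fell to a few percent of their level when gun1-9 seedlings were grown on norflurazon. They were chosen as the 2 nuclear genes with the most negative difference of response between gun1-9 and wild-type Col-0, among 13367 probe sets annotated to 1 nuclear gene. In all, 22746 probe sets were tested, and each of the 2 genes had 1 probe set of its own. The response is the log2 change of a transcript on norflurazon, and the difference of response is the response in a mutant minus the response in Col-0. Because these values chose the genes, the levels in Col-0 and gun1-9 are given as a description, without a test.

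AT3G16670 belongs to the pollen Ole e 1 allergen and extensin family, named after an olive pollen protein, whose members are mostly secreted proteins associated with the cell wall. AT1G23130 belongs to the family of major latex proteins and Bet v 1 allergens, named after poppy latex and birch pollen proteins, which carry a cavity that can bind small hydrophobic ligands. Both family names are general knowledge and are not in the annotation supplied with the data. The herbicide norflurazon stops the synthesis of carotenoids, light then damages the plastids, and many nuclear genes respond to signals from them. GUN1 (a plastid protein with pentatricopeptide repeats) and GUN5 (the H subunit of magnesium chelatase) were found through mutants in which nuclear photosynthesis genes stay active under such damage.

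The 18 arrays measured whole seedlings of Col-0, gun1-9 and gun5, at 5 days, grown in continuous light on medium with 1% sucrose, either untreated or on 5 uM norflurazon. Each of the 6 groups held 3 arrays, described as biological replicates, and their number limits the precision. The labels do not say what the gun1-9 and gun5 alleles change, and whole seedlings pool all organs. Values are probe-set intensities, and log2 changes are on the log2(intensity + 1) scale with the standard error (SE) of a limma fit to all arrays.

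AT3G16670 was bright in 5 of the 6 groups and far lower in treated gun1-9. In untreated Col-0 its intensity was 1234, 1291 and 1295, and on norflurazon 948.9, 1115 and 1123. In untreated gun1-9 it was 1602, 1536 and 1215, a range that contains the untreated Col-0 values. In treated gun1-9 it was 13.5, 28.5 and 29.3, so that the highest of these arrays was far below the lowest array of any other group. In gun5 the untreated arrays gave 1749, 1570 and 1706 and the treated arrays 959.3, 992.2 and 744.8. The treated gun5 arrays overlapped with treated Col-0 and stayed below all untreated arrays.

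AT1G23130 followed the same course. In untreated Col-0 its intensity was 649.0, 807.4 and 689.6, and on norflurazon 476.4, 561.7 and 615.1. In untreated gun1-9 it was 899.6, 940.3 and 909.7, above every Col-0 array. In treated gun1-9 it was 14.6, 17.0 and 11.9, without overlap with any other group. In gun5 it was 1055, 1069 and 898.5 untreated and 546.7, 534.5 and 387.4 on norflurazon. Here too the treated gun5 arrays overlapped with treated Col-0 and not with any untreated group.

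**Figure D1:**
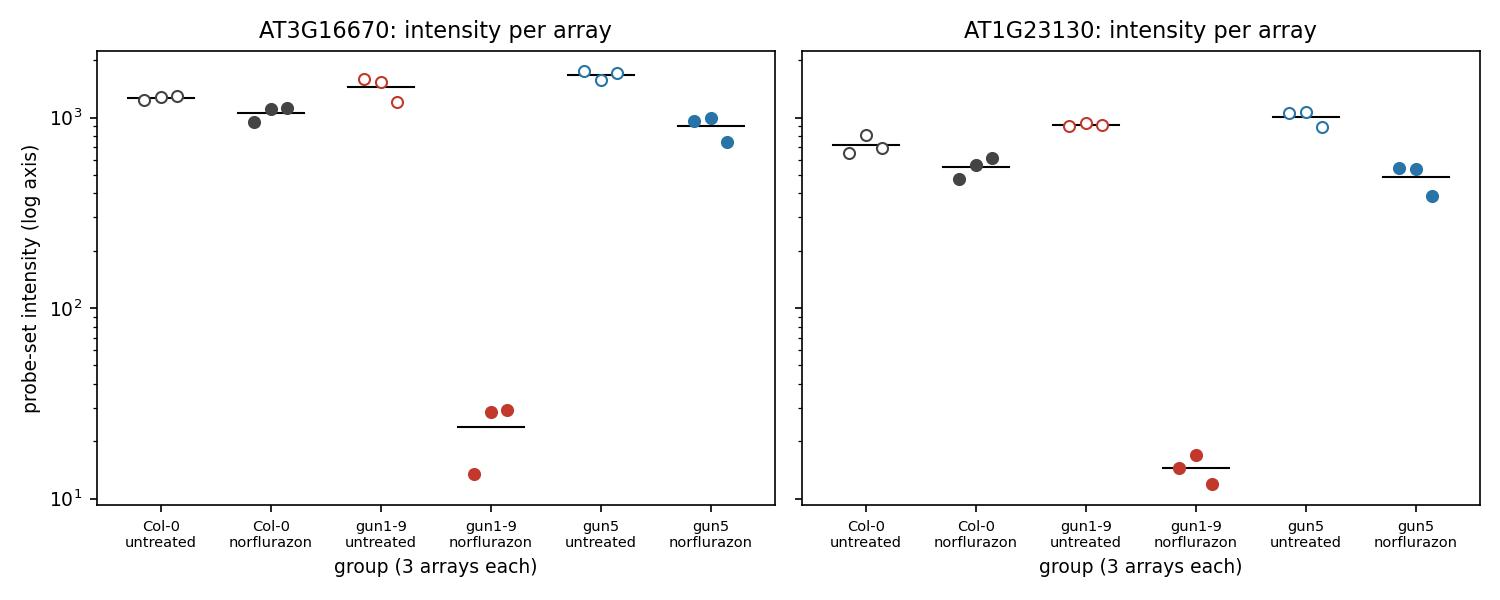
Probe-set intensity (log axis) of AT3G16670 and AT1G23130 in each array, by group; open circles are untreated arrays, filled circles treated ones, and lines are means of 3 arrays. Treated gun1-9 lies between 11.9 and 29.3 for both genes, while every other array is at 387.4 or above.

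The order of the group means was the same for both genes. For AT3G16670 it ran from untreated gun5 (1675 ± 93.8, SD, n = 3) through untreated gun1-9 (1451 ± 207), untreated Col-0 (1273 ± 34.2), treated Col-0 (1062 ± 98.1) and treated gun5 (898.7 ± 134) to treated gun1-9 (23.8 ± 8.93). Neighbours in this order overlapped, except that untreated and treated Col-0, and treated gun5 and treated gun1-9, were separate. For AT1G23130 the means were 1008 ± 94.9, 916.6 ± 21.2, 715.3 ± 82.3, 551.1 ± 69.9, 489.5 ± 88.7 and 14.5 ± 2.57 in that order. For this gene untreated gun1-9 was also separate from untreated Col-0.

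In treated gun1-9 both probe sets were above the dim level, near the middle of the arrays, at percentiles 46.7 to 56.8. No detection calls were used, so whether some transcript remained there was not tested. The mean first quartile of the arrays, used as the dim level, corresponds to an intensity of 3.79, and the lowest value of either gene was 11.9. The mean of treated gun1-9 was 2.24% of treated Col-0 for AT3G16670 and 2.63% for AT1G23130, and 1.64% and 1.58% of untreated gun1-9. In whole seedlings, fewer cells that express a gene and less RNA per cell cannot be told apart.

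The log2 change on norflurazon in gun1-9 was -5.94 ± 0.21 SE for AT3G16670 and -5.90 ± 0.15 SE for AT1G23130. These were the 10th and 12th most negative of all probe sets in gun1-9, and the values ahead of AT3G16670 were 7 of plastid-encoded genes, 1 of another nuclear gene and 1 without a single gene name. In Col-0 the log2 changes were -0.27 ± 0.21 SE and -0.38 ± 0.15 SE. The differences of response between gun1-9 and Col-0, which chose the genes, were -5.68 ± 0.30 SE for AT3G16670 and -5.52 ± 0.21 SE for AT1G23130. They ranked 1 and 2 among all 22746 probe sets, from the most negative. Over all probe sets the median difference was -0.02, and limma called 15.3% of probe sets, 7.21% lower (Benjamini-Hochberg adjusted p under 0.05). With 16 instead of 1 added to the intensity, the differences were -4.96 and -4.57.

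Within treated gun1-9, AT3G16670 was lowest in array 1, at 13.5, and its difference of response without that array was -5.33.

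The 5 nuclear genes that followed by the same rule had smaller or more scattered differences of response. AT3G02480, a late embryogenesis abundant (LEA) family gene, had a difference of -4.81 ± 1.26 SE, with 5.72, 68.6 and 7.47 in treated gun1-9. AT1G67860 had -3.87, the wound-responsive family gene AT4G10270 -3.45, the glutathione transferase gene GSTU20 (AT1G78370) -3.22 and the chitinase family gene AT2G43620 -3.12. In the gun5 response, which the rule did not use, the log2 changes of these genes in the same order were -3.15, -0.37, -1.59, -5.66 and -2.50. GSTU20 fell in gun1-9 with a log2 change of -6.26, below the -5.94 and -5.90 of the pair. It reached 11.6, 17.3 and 15.4 in treated gun1-9, and in Col-0 it also fell, with a log2 change of -3.04.

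The gun5 arrays gave a response of both genes that had no part in their choice. AT3G16670 fell in gun5 with a log2 change of -0.91 ± 0.21 SE (limma, adjusted p = 0.0031 over all probe sets), and AT1G23130 with -1.05 ± 0.15 SE (limma, adjusted p = 3.6e-05). Treated arrays were below untreated ones in 3 of 3 for each gene, and the treated means were 53.7% and 48.6% of the untreated means. Both members were thus called lower, in a comparison in which 28.9% of all probe sets were called, 13.2% lower. The 95% intervals of the log2 change were -1.35 to -0.47 and -1.36 to -0.74. The median change of all probe sets in gun5 was 0.04, and 4.50% and 3.43% of probe sets had a more negative change than AT3G16670 and AT1G23130.

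**Figure D2:**
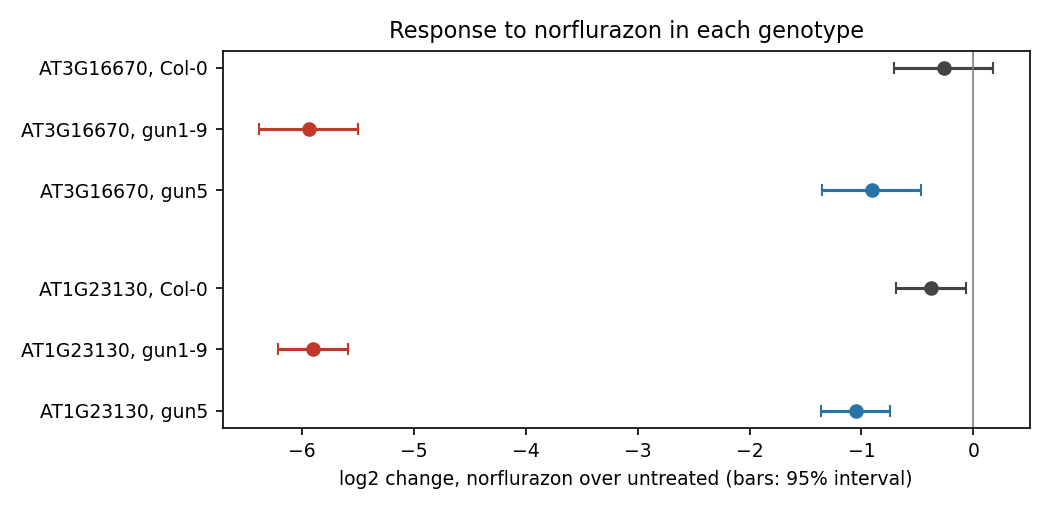
Log2 change on norflurazon (horizontal axis) of AT3G16670 and AT1G23130 in each genotype; points are limma estimates and bars 95% intervals. Changes are near -5.9 in gun1-9, near -1 in gun5 and between -0.38 and -0.27 in Col-0.

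Set against Col-0, the gun5 response was more negative by a difference of -0.64 ± 0.30 SE for AT3G16670 and -0.68 ± 0.21 SE for AT1G23130. It shares the Col-0 arrays with the difference that chose the genes and is given without a test. In treated seedlings the gun5 mean was 84.6% of the Col-0 mean for AT3G16670 and 88.8% for AT1G23130. In untreated seedlings it was 132% and 141%, and the untreated gun1-9 mean was 114% and 128% of the Col-0 mean. For both genes the gun5 mean was thus above that of Col-0 in untreated seedlings and below it in treated ones.

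AT3G16670 and AT1G23130 lie on different chromosomes, 3 and 1. Of the 3 next genes on each side of each in the TAIR10.1 gene table, 6 of 12 had a probe set annotated to them alone. Here and below only such genes are called measured, and a probe set without a single gene name may still detect others. The nearest measured gene before AT3G16670 is AT3G16660, a member of the same Ole e 1 family, separated from it in the table by 2 long non-coding RNA genes. AT3G16660 was at 185.6, 202.3 and 209.6 in untreated Col-0 and at 168.7, 208.2 and 212.6 on norflurazon. In gun1-9 it went from 189.2, 223.0 and 166.9 to 44.7, 42.6 and 43.7. All arrays of the other groups were at 158.2 or above. In gun5 it went from 218.0, 226.5 and 239.1 to 158.2, 175.0 and 159.2, without overlap.

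AT3G16660 fell in gun1-9 with a log2 change of -2.11 ± 0.11 SE (limma, adjusted p = 1.79e-10) and in gun5 with -0.47 ± 0.11 SE (adjusted p = 0.00321). In Col-0 its log2 change was -0.02 ± 0.11 SE without a call. Its gun1-9 response was below its Col-0 response by a called difference of -2.08 ± 0.15 SE (limma, adjusted p = 3.37e-08). For gun5 that value was -0.45 ± 0.15 SE without a call (limma, adjusted p = 0.0584). It was called with quantile normalization (adjusted p = 0.0311), with 16 added to the intensity (adjusted p = 0.0410), and without treated Col-0 array 1 (adjusted p = 0.0182) or untreated gun1-9 array 2 or 3 (adjusted p = 0.0377 and 0.0382). Whether the probe sets of AT3G16660 and AT3G16670 detect each other's transcript was not tested.

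On the other side of AT3G16670, SWEET16 (AT3G16690), a vacuolar sugar transporter gene, rose in Col-0 by 0.85 and in gun1-9 by 0.77 on the log2 scale (limma, adjusted p = 0.00148 and 0.00325). In gun5 it rose by 0.52 (limma, adjusted p = 0.0473), a call lost in 16 of 25 alternative settings, with adjusted p up to 0.249. AT3G16680 and AT3G16700 had intensities of 2.80 to 4.15 and 2.98 to 5.50 over all arrays, near the dim level, and were not called in any of the 5 comparisons.

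The gene next to AT1G23130 is AT1G23120, of the same Bet v 1 family. It did not share the fall: its intensity in gun1-9 was 23.8, 27.3 and 30.9 untreated and 26.1, 31.1 and 29.8 on norflurazon. Its log2 change there was 0.09 ± 0.15 SE without a call, and in Col-0 it rose by 0.78 (limma, adjusted p = 0.00059). Its difference of response in gun1-9 was -0.70 ± 0.22 SE (limma, adjusted p = 0.0397). This call was lost in 14 of 25 alternative settings, with adjusted p up to 0.0974. They include median centring, a fit to only the arrays compared, a trended and robust fit and 16 added to the intensity, and also leaving out any untreated Col-0 array, treated Col-0 array 3, untreated gun1-9 array 2 or 3, treated gun1-9 array 1 or 3, or untreated gun5 array 2 or 3. AT1G23140, on the other side, a calcium-dependent lipid-binding family gene, rose in Col-0 by 0.66 (adjusted p = 0.00634) and in gun1-9 by 0.49 (adjusted p = 0.0397). The second call was lost in 8 of 25 alternative settings, among them those without untreated gun1-9 array 1 or 2 or treated gun1-9 array 2 or 3, with adjusted p up to 0.163. Among the 6 measured neighbours of both genes, 1 fell and 2 rose in gun1-9, where 36.3% of all probe sets were called, 15.7% lower and 20.5% higher.

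**Figure D3:**
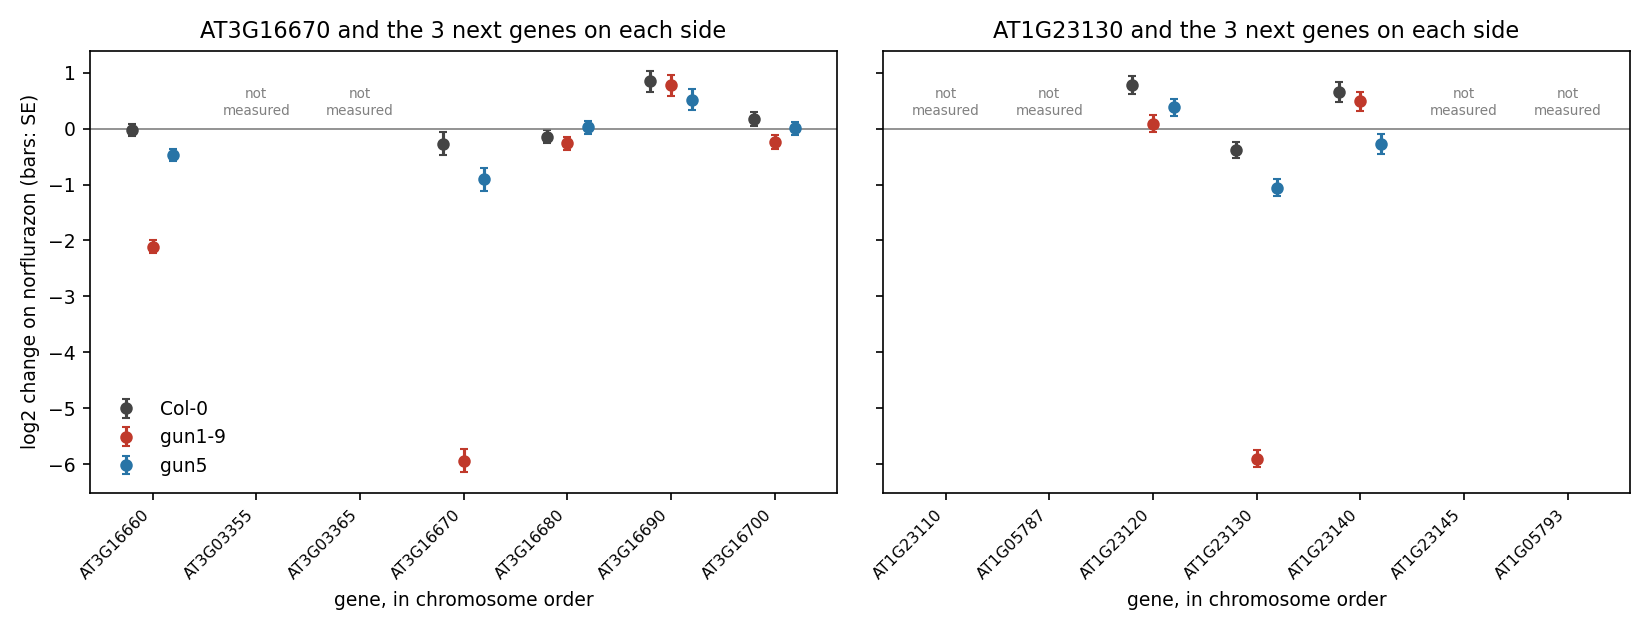
Log2 change on norflurazon by genotype (vertical axis; points are limma estimates, bars SE) of AT3G16670, AT1G23130 and the 3 next genes on each side, in chromosome order. AT3G16660 has -2.11 in gun1-9, while no other measured neighbour is below -0.30 in any genotype.

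The course of both genes over the arrays was alike. Pearson's r between their log2 levels was 0.992 over 18 arrays and 0.940 over the 15 arrays without treated gun1-9, whose 5 groups differ in both genes. Both genes were chosen for their fall in treated gun1-9, which by itself makes r over the 18 arrays high. The 15 arrays still include the Col-0 and untreated gun1-9 arrays, which the rule also used. The arrays share their normalization and their treatment, and the coefficient is a description of these groups.

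Among 13365 other probe sets with 1 nuclear gene, AT3G16660 had the highest r over the 18 arrays with each of them, 0.986 with AT3G16670 and 0.985 with AT1G23130. AT4G00780 (0.935 and 0.960), a TRAF-like family gene, AT5G09240 (0.929 and 0.956) and AT2G04570 (0.926 and 0.949), a GDSL-type lipase family gene, followed in both orders. The fifth was AT3G05730 (0.926), a defensin-like gene, for AT3G16670, and IQD21 (AT3G49260, 0.945), a calmodulin-binding family gene, for AT1G23130. All of them were lowest in treated gun1-9, but their log2 changes there lay between -2.14 and -1.32, against -5.94 and -5.90 for the pair.

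These rankings rest on treated gun1-9. Over the other 15 arrays AT3G16660 had r = 0.791 with AT3G16670 and stood 259th, AT3G05730 had r = -0.582, and 0 of the 5 genes stayed among the top 5 of either gene. By Spearman's rho over 18 arrays, which gives less weight to the treated gun1-9 arrays, 0 of 5 did as well.

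**Figure D4:**
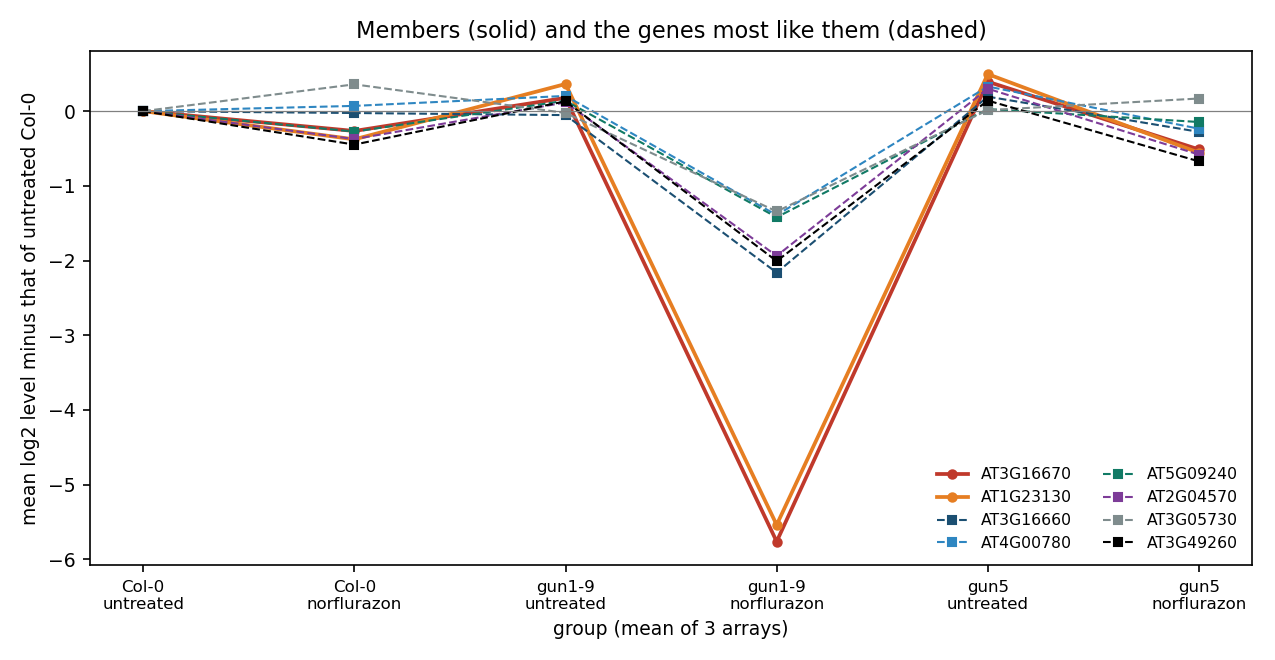
Mean log2 level of each group minus that of untreated Col-0 (vertical axis) for AT3G16670 and AT1G23130 (solid) and the 6 genes most like them (dashed); each point is the mean of 3 arrays. All 8 genes are lowest in treated gun1-9, and the members fall farthest.

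Of the Ole e 1 family, 15 of 28 listed genes were measured besides AT3G16670, AT3G16660 among them. In the gun1-9 difference of response, 3 of 15 were called lower and 2 higher, where 7.21% and 8.07% of all probe sets were called. The list median was -0.12, against -0.02 for all probe sets. Besides AT3G16660, the lower ones were SAH7 (AT4G08685) at -1.27 ± 0.17 SE (limma, adjusted p = 4.92e-05) and AT2G16630 at -0.90 ± 0.25 SE (adjusted p = 0.0182). The second was not called without treated gun1-9 array 3 (adjusted p = 0.0557). SAH7 went from 323.9, 417.6 and 389.1 to 257.7, 289.0 and 257.9 in Col-0, and from 367.2, 357.7 and 497.4 to 106.4, 128.8 and 122.2 in gun1-9. It was thus lower on norflurazon in both, and lowest in treated gun1-9. AT5G13140 had a positive difference, 1.08 ± 0.17 SE (limma, adjusted p = 0.000185), with a log2 change of -1.51 in Col-0 and -0.43 in gun1-9.

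On norflurazon, 7 of the 15 Ole e 1 family genes fell and 3 rose in Col-0 (39.3% of all probe sets were called, 15.1% lower and 24.2% higher), 7 fell and 2 rose in gun1-9 (15.7% and 20.5% of all probe sets), and 7 fell and 0 rose in gun5 (13.2% and 15.7%). Over the alternative settings, the falls in gun5 ranged from 4 to 7 and the rises in Col-0 from 1 to 3. The list medians were -0.23, -0.29 and -0.40. Of the 15 genes, 3 were below the dim level in every group.

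Of the family of AT1G23130, 15 of 27 listed genes were measured besides it. In the gun1-9 difference of response, 4 of 15 were called lower and 0 higher, where 7.21% and 8.07% of all probe sets were called. The list median was -0.08, against -0.02 for all probe sets. AT4G23670 had the largest of these, -1.36 ± 0.15 SE (limma, adjusted p = 3.71e-06). It rose in Col-0 by 0.38, from 2215, 2231 and 2208 to 2844, 3036 and 2761, and fell in gun1-9 with a log2 change of -0.98, from 2436, 2376 and 2637 to 1335, 1318 and 1123. Its groups did not overlap in either genotype. AT4G23680 had a difference of -0.98 (adjusted p = 0.00613). AT4G14060 had -0.85 (adjusted p = 0.00744), and AT1G23120 was the fourth. The treated arrays of AT4G14060 overlapped between gun1-9 (3.72 to 5.48) and Col-0 (4.17 to 4.73), near the dim level of 3.79. Its untreated arrays were higher in gun1-9 (mean 12.5) than in Col-0 (mean 6.11).

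In the gun5 response 6 of these 15 genes fell and 0 rose, where 13.2% of all probe sets were called lower and 15.7% higher (list median -0.20, against 0.04 for all probe sets), and the gun5 difference of response was called lower for 4 and higher for 0. In that comparison 16.8% of all probe sets were called, 8.11% lower and 8.73% higher. For AT4G23680 that difference was -2.01 ± 0.23 SE (limma, adjusted p = 5.09e-06). In Col-0, 3 fell and 3 rose (15.1% and 24.2% of all probe sets), and in gun1-9, 4 fell and 3 rose (15.7% and 20.5%). In gun1-9 AT3G26460 fell with a log2 change of -2.71 ± 0.32 SE (adjusted p = 3.61e-06), from 38.3, 30.9 and 63.0 to 8.83, 4.24 and 4.61. It also fell in Col-0 with -1.36 (limma, adjusted p = 0.0024), from 11.6, 27.7 and 11.8 to 6.57, 5.52 and 4.55. In gun5 it fell with -1.15 (limma, adjusted p = 0.0112), a call lost with 16 added to the intensity. The gun1-9 difference of response of AT3G26460 was -1.35, without a call (adjusted p = 0.0536). In the gun5 difference of response, 2 Ole e 1 family genes were called lower and 2 higher.

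**Figure D5:**
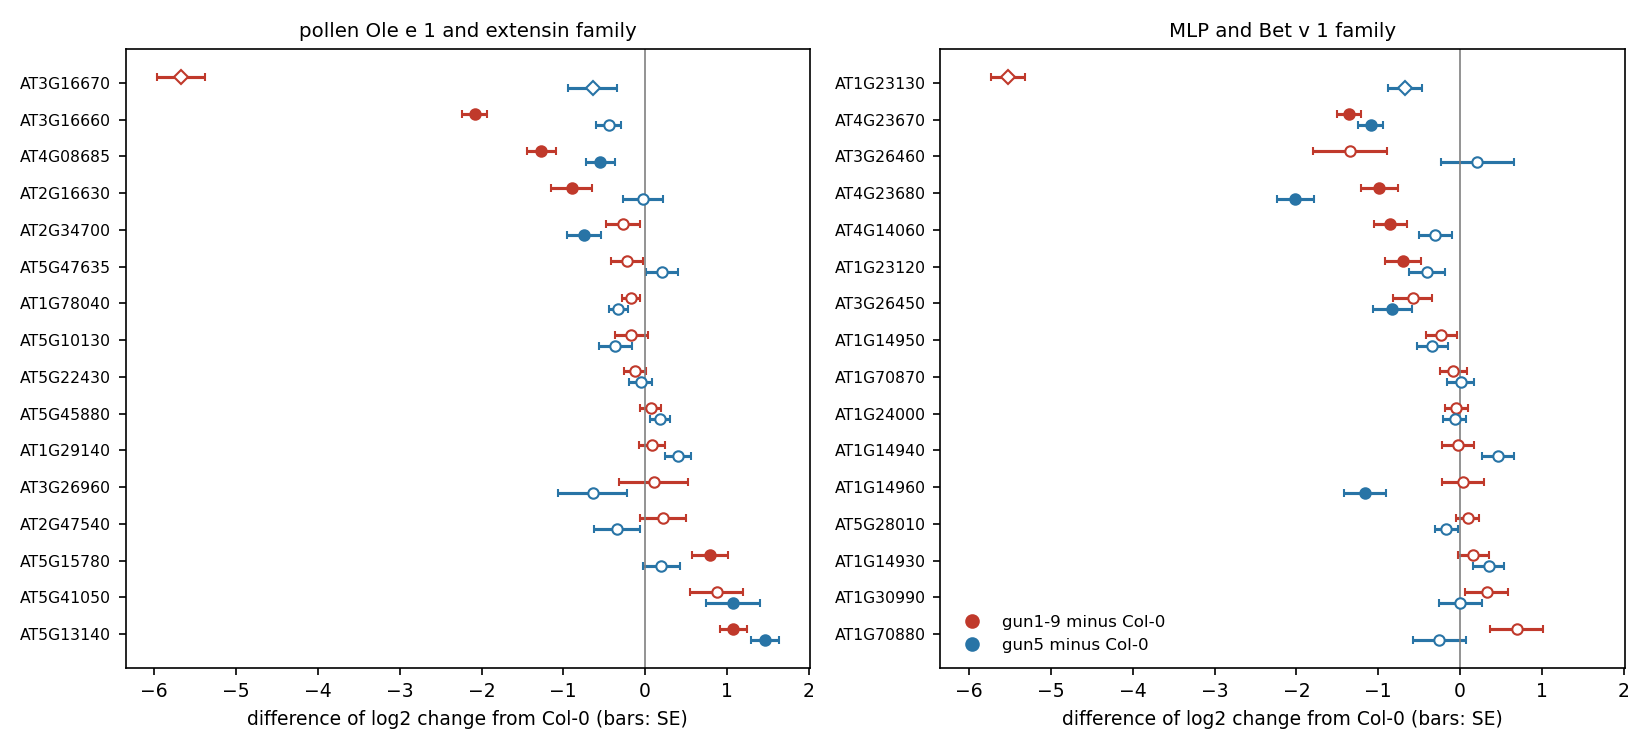
Difference of response from Col-0 (horizontal axis; points are limma estimates, bars SE) for AT3G16670, AT1G23130 (diamonds, chosen by these values and drawn without a call) and the measured genes of their families, in gun1-9 and gun5; filled circles are called. Below the members, AT3G16660 has the most negative value in gun1-9, -2.08.

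Signals of tissue and RNA quality were set beside the values. A 25S ribosomal RNA control was at 3143, 927.5 and 2370 in treated gun1-9 and between 19.6 and 96.9 in all other arrays, and its part in the results was not tested. The ratio of 3' to 5' control probe sets for GAPDH was 1.57 to 2.36 in treated gun1-9 and 1.90 to 2.64 elsewhere, and for actin 74.5 to 87.0 against 60.1 to 121.

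Of 13 root marker genes 5 were measured, 1 of them below the dim level in every group, and their summed intensity was 5060 to 5291 in untreated and 5768 to 6960 in treated gun1-9. Most of that sum was PYK10, a beta-glucosidase gene, at 4791 to 5081 and 5318 to 6659. In the gun1-9 response 2 of the 5 rose and 1 fell, where 20.5% and 15.7% of all probe sets were called higher and lower. EXPA7 (AT1G12560) rose by 1.36 and EXPA18 (AT1G62980) by 0.94 on the log2 scale (limma, adjusted p = 0.00519 and 0.00792). AT1G62500, a cortex marker, fell with a log2 change of -2.45 (limma, adjusted p = 9.65e-06). AT1G62500 went from 76.9, 46.6 and 57.6 to 9.93, 8.72 and 11.5 in gun1-9, and its difference of response from Col-0 was -2.23 ± 0.45 SE (limma, adjusted p = 0.00191). It thus moved in the direction of AT3G16670 and AT1G23130, and to a smaller extent. In Col-0 2 root markers rose (24.2% of all probe sets), and in gun5 0 were called (28.9% of all probe sets). Of 15 seed maturation markers 4 were measured, at intensities of 1.85 to 17.5 over all arrays. Their sums were 14.3 to 19.9 in untreated and 16.6 to 21.9 in treated gun1-9. Only 1 of them, M17, was called higher, in Col-0, gun1-9 and gun5 (24.2%, 20.5% and 15.7% of all probe sets). M17 was near the dim level of 3.79, at 1.85 to 3.09 in untreated and 3.33 to 7.09 in treated arrays. Of 18 green leaf markers 3 were measured. Their sum was 17352 to 18697 in untreated and 3017 to 3725 in treated Col-0, and 17125 to 17896 and 13824 to 14631 in gun1-9. The sum thus stayed high in the group in which AT3G16670 and AT1G23130 were lowest. These 3 (RCA, LHCB4.1 and LHCB4.2) are nuclear photosynthesis genes, the kind that stays active in gun mutants. Their level therefore does not measure the amount of leaf tissue here. All 3 leaf markers fell in Col-0, 1 of them in gun1-9 and 2 of them in gun5 (15.1%, 15.7% and 13.2% of all probe sets). All 3 had a called positive difference of response in both mutants (8.07% of all probe sets in gun1-9 and 8.73% in gun5). The part of root, seed and leaf tissue in the results was not tested.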

How the data were processed

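Intensity values per probe set, on a linear scale, come from a table the authors deposited with 1 column for each of 18 Affymetrix arrays. The submitters' processing notes list GCRMA and MAS5, with no role or version. Array medians were 14.7 to 16.3. No further normalization was applied. Of 22810 rows, 64 controls were left out. The platform annotation gave 13513 probe sets 1 gene, 503 several, and did not list 8730; 13436 were found in a TAIR10.1 gene table. No build is named, so no coordinates are given.

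The deposited intensities were transformed to log2(intensity + 1), which understates changes of dim probe sets, and 6 group means were fitted to all arrays with limma 3.58.1 in R 4.3.3 (lmFit, eBayes, 2-sided). P-values were adjusted over 22746 probe sets within each comparison, and calls are under 0.05. The fit was tested on simulated data. Members, lists and contrasts were chosen with earlier results of these data known. Named genes were the members, the next 5 by the rule, 5 per member by Pearson's r, up to 4 called genes per family and comparison, and measured neighbours. Promoter motifs and sequences were not analysed here. Replicate arrays correlated with r of at least 0.992, and no 2 arrays shared more than 0.440% of values. The main fit did not pair same-numbered arrays of different groups. Of 45 such pairs, 7 had a correlation of deviations over 0.1, with a median of 0.046, against -0.017 for other numbers. Of 18 arrays, 14 correlated best with their own number, and what the numbers stand for was not tested. Figures used matplotlib 3.10.9.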

Additional observations from a re-analysis of the deposited data

Results flagged for a closer look

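The response to norflurazon differed from that of Col-0, by the limma test of the difference itself, for several relatives and neighbours of AT3G16670 and AT1G23130. In gun1-9, the log2 difference was -2.08 for AT3G16660, -1.27 for SAH7 (AT4G08685), -0.90 for AT2G16630, -1.36 for AT4G23670, -0.98 for AT4G23680, -0.85 for AT4G14060 and -0.70 for AT1G23120. Of these, AT4G23680 rose in gun1-9 and AT1G23120 had no called change there. The difference was positive for AT5G13140 (1.08) and AT5G15780 (0.80). In gun5, it was -0.55 for SAH7, -0.74 for AT2G34700, -1.09 for AT4G23670, -2.01 for AT4G23680, -0.83 for AT3G26450, -1.16 for AT1G14960 and -0.94 for AT1G23140. The gun5 difference was positive for AT5G13140 (1.47) and AT5G41050 (1.07). AT2G34700, AT1G23140, AT5G13140 and AT5G41050 had no called change on norflurazon in gun5 itself. For AT1G23140 the log2 change was -0.28 in gun5, against a called rise of 0.66 in Col-0. Some calls of a difference were lost in alternative settings: that of SAH7 in gun5 in 13 of 25 (adjusted p up to 0.101), AT1G23120 in 14, AT5G41050 in 7, AT3G26450 and AT5G15780 in 5 each, AT2G34700 in 2 and AT2G16630 in 1. The other called differences of this paragraph held in all 25. AT5G15780 and AT2G34700 had low intensities, 2.50 to 10.9 and 2.71 to 8.87 over all arrays, against a dim level of 3.79. AT4G14060 was also low on norflurazon, at 3.72, 5.48 and 4.89 in gun1-9 and 4.43, 4.73 and 4.17 in Col-0. These treated arrays overlapped, while its untreated mean was 12.5 in gun1-9 and 6.11 in Col-0. Its negative difference thus goes with a higher untreated level in gun1-9, not with a lower treated one. Both sets of differences share the Col-0 arrays.

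The 25S ribosomal RNA control probe set, which is outside the tested probe sets, had a mean of 2147 in treated gun1-9 and 78.1 in treated gun5, in each case with all treated arrays above the untreated ones of that genotype.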

How the results depend on the processing

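The falls of AT3G16670 and AT1G23130 in gun5 were called in all 25 alternatives, with log2 changes from -0.98 to -0.78 and from -1.14 to -0.89 when 1 array was left out. Their adjusted p reached 0.0201 and 0.000334 there, and 0.00596 and 0.00141 under the 7 other alternatives. With 16 added to the intensity, the gun1-9 changes of AT3G16670 and AT1G23130 were -5.22 and -4.94 and the differences from Col-0 -4.96 and -4.57. Leaving out 1 array gave -6.13 to -5.59 and -6.02 to -5.78 for the changes and -5.86 to -5.33 and -5.64 to -5.40 for the differences. Total counts of called probe sets stayed within 1.5 times in each comparison, but median centring lowered the gun5 differences called lower from 1845 to 1170. It made 49.7% of the Col-0 calls higher, against 61.6%, and 66.3% of the called gun5 differences, against 51.8%. With the replicate number as a block, 6746 probe sets were called in gun5, against 6565, and no call of the pair changed. Of 18 arrays, 14 correlated best with their own number. Of 68 called values of family genes and neighbours, 43 were called in every alternative, 25 were lost in at least 1, and 0 reversed. Over the alternatives, the Bet v 1 family had 0 to 4 genes called higher in gun1-9 and 1 to 3 lower in Col-0, the Ole e 1 family had 0 to 4 genes with a lower gun5 difference and 1 to 3 with a higher difference in each mutant, and 1 to 2 neighbours rose in gun1-9. Likeness over 15 arrays was added after seeing the data. Precision is limited by 3 arrays per group.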
